A study of Mus musculus with 18 samples.

Results

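The forkhead (Fox) and Klf transcription factors of the mouse were followed through a conversion of fibroblasts to intestinal progenitors. Members were all genes that the array files name Fox with a letter and a number, or Klf with a number, leaving out Foxa1, Foxa2 and Foxa3. This gave 53 genes, 36 Fox and 17 Klf, of 19719 named genes on the array, and the brightest probe stood for each gene.

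Forkhead factors bind DNA through a winged helix domain. Several of them (Foxc1, Foxc2, Foxd1, Foxf1, Foxf2, Foxs1) are known from mesenchyme, where Foxf1 and Foxf2 act in gut connective tissue that receives hedgehog signals from the epithelium, and Foxo factors are held out of the nucleus by insulin signalling. Klf factors bind GC-rich and CACCC sequences through zinc fingers. In the intestinal epithelium Klf5 is known from dividing crypt cells and Klf4 from differentiated cells, among them goblet cells.

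RNA from 6 kinds of C57BL/6 mouse culture was hybridised to Agilent arrays, 3 arrays each, 18 in all. The groups were mouse embryonic fibroblasts (MEF), induced hepatocyte-like cells derived from such fibroblasts (iHep), and 4 kinds of organoid. Budding organoids were grown from induced intestinal stem cells (called iISC organoids here) or from crypts of the adult intestine (crypt organoids). Mixed spherical and budding organoids came from the induced progenitors of fetal type (iFIPC organoids) or from progenitors of the fetal intestine itself (FI organoids). The labels do not name the factors introduced in the conversions, do not say that these MEFs were the cells converted, and give no age or animal for a sample. The 3 iHep titles carry different, unexplained codes, so these arrays may be different conversions. A level is the log2 signal minus the 75th percentile of the array's gene probes, which was an intensity of 712.6 to 1476. Between 56.12 and 68.65% of an array's probes stood well above background. MEF arrays 2 and 3 differed by a spread of 0.073 log2, against 0.197 to 0.536 in 17 other within-group pairs, and were averaged to 1 sample, MEF 2, so n = 2 for MEF and 3 for every other group. Nothing shows that samples were separate cultures, so p-values measure only the spread between these samples. The epithelial markers Cdh1 and Epcam were above background on every iHep and organoid array and on no MEF array. Organoid arrays were read on another scanner with a later extraction software than those of MEF and iHep, so array set and cell type cannot be told apart between them. No slide held iISC with crypt organoids, or iFIPC with FI organoids.

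The promoters of 4 members are shown because these genes, Foxc1, Foxf2, Klf4 and Klf6, were the ones called higher in iFIPC than in FI organoids. Each line gives the 250 bases before the start of the gene on its own strand, from RefSeq on GRCm38.p6. Capitals mark the GC box GGGCGG, the CACCC box CCACCC and the forkhead core TGTTTA, each searched on both strands, and adjacent matches may overlap. The regions are chr13:31806396-31806645 (plus strand) for Foxc1, chr13:31625566-31625815 (plus strand) for Foxf2, chr4:55532476-55532725 (minus strand) for Klf4 and chr13:5861239-5861488 (plus strand) for Klf6.
Foxc1: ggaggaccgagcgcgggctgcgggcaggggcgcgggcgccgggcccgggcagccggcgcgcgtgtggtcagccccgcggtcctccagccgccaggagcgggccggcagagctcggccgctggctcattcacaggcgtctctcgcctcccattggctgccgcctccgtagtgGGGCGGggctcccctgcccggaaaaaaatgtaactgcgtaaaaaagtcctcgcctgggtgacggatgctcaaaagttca
Foxf2: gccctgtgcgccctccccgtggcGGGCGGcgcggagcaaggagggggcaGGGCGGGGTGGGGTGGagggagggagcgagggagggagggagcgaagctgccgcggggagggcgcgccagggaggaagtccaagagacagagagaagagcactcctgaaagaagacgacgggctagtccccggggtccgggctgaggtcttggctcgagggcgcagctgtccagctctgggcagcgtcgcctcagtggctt
Klf4: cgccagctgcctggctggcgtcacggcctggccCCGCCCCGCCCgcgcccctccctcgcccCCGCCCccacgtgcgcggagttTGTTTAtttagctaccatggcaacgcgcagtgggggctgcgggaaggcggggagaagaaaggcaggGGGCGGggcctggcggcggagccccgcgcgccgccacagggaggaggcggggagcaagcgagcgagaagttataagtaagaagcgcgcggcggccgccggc
Klf6: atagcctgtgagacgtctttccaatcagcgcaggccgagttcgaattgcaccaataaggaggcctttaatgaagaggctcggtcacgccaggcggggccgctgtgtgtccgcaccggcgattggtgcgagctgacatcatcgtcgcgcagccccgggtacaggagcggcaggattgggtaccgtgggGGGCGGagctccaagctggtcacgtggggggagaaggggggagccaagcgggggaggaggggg

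The GC box occurred 1 time before Foxc1, 2 times before Foxf2, 4 times before Klf4 and 1 time before Klf6. Among 32851 RefSeq promoters of this length 32.7% held it, and so did 26 of the 35 members with a promoter in the table (74.3%). The CACCC box was present in 28.1% of promoters and 17 of 35 members (48.6%), and of these 4 genes it stood before Foxf2, 2 times. The forkhead core was present in 12% of promoters and 4 of 35 members (11.4%), and stood 1 time before Klf4. The whole set counts a gene at each of its starts, while each member counts by a single start, so these shares are of unlike units. A match is a description of the letters and not a binding site.

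Of the 53 members, 28 were well above background on all 18 arrays, 19 on some and 6 on none (Foxb1, Foxd4, Foxe1, Foxi1, Foxn4 and Foxp3). Foxb2, Foxi2, Foxn1 and Foxo3 were above background on 1, 6, 2 and 2 arrays and throughout no group. The other 43 members were above background throughout at least 1 group and could enter a comparison. More members were above background on every array in MEF and iHep (40 each) than in FI (37), iFIPC (35), crypt (32) or iISC organoids (31). Over all gene probes, 25860 to 26145 were above background on both arrays of a within-group pair in FI organoids. These counts were 24329 to 25382 in iFIPC, 24328 to 24941 in crypt and 22613 to 23624 in iISC organoids. They were 24119 to 24654 in iHep and 24393 to 27146 in MEF. The organoid types stood in a like order over all probes, so their member counts are not read as a result. For the 47 members seen on any array, the median distance between the highest and the lowest group mean was 2.02 log2, and it was 2 or more for 25 members and 5 or more for 9. Among those 25 the highest group was iHep for 11, MEF for 8, crypt organoids for 3, FI organoids for 2 and iISC organoids for 1. The 3 of crypt organoids were Foxo3, above background on 2 arrays, Klf1, near background, and Klf2, whose 2 probes disagree. Foxn1, also above background on 2 arrays, is 1 of the 11 of iHep. This tally is not read as a result. The heat map of group means shows the wide-ranging members beside the flat ones.

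**Figure D1:**
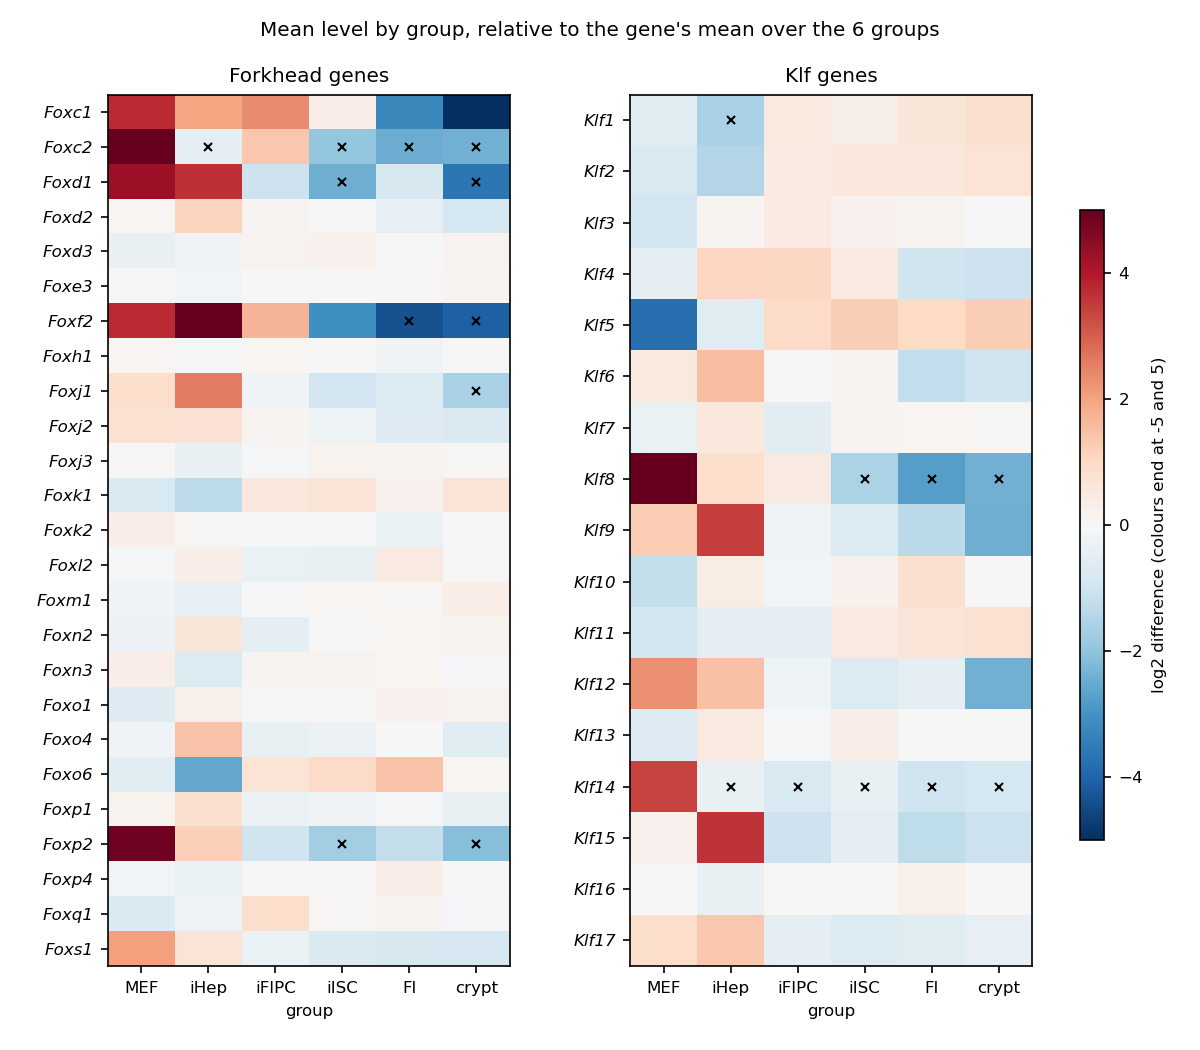
Heat map of the mean level of each member in the 6 groups, as a log2 difference from the gene's own mean over the groups, for 42 members above background throughout at least 1 group; a cross marks a group in which no array was well above background. Foxc2, Foxf2 and Klf8 are red in MEF and carry crosses in FI and crypt organoids, while Klf5 is blue in MEF.

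Against MEF, all 4 organoid types were lower in Foxc2, Foxd1 and Klf8 and higher in Klf5. In limma, with p-values adjusted by Benjamini-Hochberg over all genes, a member was called where its adjusted p was below 0.05 and its change reached 1 log2 or more. This held for 21 of 43 members tested in FI organoids (7 higher, 14 lower), where 47.1% of all genes tested were called (23.3% higher, 23.8% lower). It held for 21 of 42 in crypt organoids (6 higher, 15 lower), with 50.3% of all genes (24.2% higher, 26.2% lower). In iISC organoids 21 of 41 were called (7 higher, 14 lower), with 48.5% of all genes (23.1% higher, 25.5% lower). In iFIPC organoids 17 of 43 were called (8 higher, 9 lower), with 43.5% of all genes (20.2% higher, 23.3% lower). These shares are near those of all genes. The 4 comparisons share the MEF samples. Foxc2, Foxd1, Foxp2, Foxs1, Klf8, Klf12, Klf14 and Klf17 were among the members lower in all 4, and Klf2, Klf5 and Klf10 were higher in all 4 (for Klf2 by its brightest probe only).

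Foxc2, a factor of vessel and trunk mesenchyme, had levels of -0.12, 0.08 and -0.03 in MEF (probe on mm9 chromosome 8, 123642693 to 123642752). It was not well above background on any crypt, FI or iISC array, at -7.62 or less, and was at least 95.6-fold lower in crypt organoids (adjusted p = 3.98e-05), 120-fold lower in FI organoids (4.4e-05) and 67.2-fold lower in iISC organoids (7.27e-05). In iFIPC organoids the levels were -1.36, -7.93 and -4.86, above background in samples 1 and 3. They lay below MEF in each sample, with a change of -4.67 ± 1.22 (SE; adjusted p = 0.00472) that rests partly on a level at background; in a fit of the groups alone the adjusted p was 0.0956. Foxc2 was not tested between iFIPC and FI organoids, since neither group had it throughout.

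Klf8, a repressor linked to cell migration, had MEF levels of -1.11, -0.88 and -0.96. It was at background on every iISC, crypt and FI array and at least 34.3-fold, 48.9-fold and 61.2-fold lower there (adjusted p = 2.45e-06, 7.54e-07 and 6.43e-07). In iFIPC organoids its levels were -5.13, -8.29 and -4.59, above background in the same samples, 1 and 3, as Foxc2.

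Foxp2 read 0.16, -0.90 and -0.88 in MEF. Its signal was at least 53.8-fold lower in iISC and 76.3-fold lower in crypt organoids (adjusted p = 1.99e-07 and 1.02e-07). In iFIPC organoids it was lower too (8.12e-07), at -5.31 in sample 1 and at background in the other samples. Foxs1, expressed in pericytes and other perivascular cells, fell less and stayed above background on all 18 arrays. Its change lay between -2.39 ± 0.22 (iFIPC; adjusted p = 8.44e-07) and -2.89 ± 0.22 (crypt; 9.62e-08). Klf12, a repressor, had changes of -2.53 ± 0.80 in iFIPC (adjusted p = 0.0141) and -4.68 ± 0.80 in crypt organoids (0.000162), and the iFIPC call was lost without iFIPC 2 or MEF 1 and the FI call without MEF 1. Klf14 was above background in MEF alone, at -3.24, -5.38 and -4.96, and was at least 3.76-fold to 6.69-fold lower in the organoids. Klf17 changed by -1.28 to -1.57, and with normexp by -0.60 to -0.80, under the size required.

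Foxc1, a factor of eye, vessel and skeletal mesenchyme, was higher in the induced organoids than in the native ones. Its levels were 2.55, 2.28 and 2.34 in MEF, 1.64, 0.22 and 1.32 in iFIPC organoids, and -1.82, -1.33 and 0.25 in iISC organoids (probe on mm9 chromosome 13, 31901257 to 31901316). In FI organoids they were -2.86, -5.40 and -5.34, and in crypt organoids -4.36, -8.63 and -6.62, of which the last pair were not well above background. No induced sample overlapped with its native group. Foxc1 was 5.57 ± 1.07 log2 higher in iISC than in crypt organoids (SE, n = 3 each; adjusted p = 0.0197) and 5.59 ± 1.07 higher in iFIPC than in FI organoids (0.00697). The size of the iISC value rests partly on crypt 2 and 3, which were at background. Against MEF, Foxc1 was lower in iISC organoids (-3.39 ± 1.05, adjusted p = 0.0113; 0.0596 without MEF replicate 1), and for iFIPC organoids the value was -1.37 ± 1.05 (0.271, not called).

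The iISC call of Foxc1 ended on leaving out iISC 3 (4.96, adjusted p = 0.066), crypt 2 (4.52, 0.0668) or crypt 3 (5.53, 0.0742). With slide as a term the Foxc1 values were 7.92 ± 1.60 (adjusted p = 0.0929) and 9.29 ± 1.61 (0.0506), and neither was called. Slide 4 held crypt and iFIPC samples together, and there Foxc1 was -8.63 and -6.62 in crypt 2 and 3 and 1.64 and 1.32 in iFIPC 1 and 3.

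Foxf2, a factor of gut connective tissue, was above background in all iFIPC samples at -0.88, -2.05 and -4.01, and at -5.64 in iISC 3 (probe on mm9 chromosome 13, 31723139 to 31723198). It was not well above background on the other iISC arrays or on any FI or crypt array. The iFIPC samples lay above every other organoid sample. Foxf2 was at least 24.9-fold higher in iFIPC than in FI organoids (limma adjusted p = 0.00221) and was lower in iISC than in iFIPC organoids (fitted change -4.77 ± 0.88, 0.00845), a size that rests partly on iISC 1 and 2 at background. With slide as a term these were 4.72 ± 1.76 (adjusted p = 0.241) and -5.03 ± 1.32 (0.109), and within slide 5, which holds iFIPC 2 and the iISC samples, the change was -5.03 ± 1.08 (0.204). Its MEF levels were 0.22, -0.71 and -0.91, and for iFIPC organoids against MEF the value was -2.02 ± 0.89 (0.0619, not called). Foxf1, named Foxf1a in the files and not a member by the rule, was above background on no organoid array.

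The summed level of fibroblast markers was also higher in iFIPC organoids than in the other organoids. Of 11 markers, 9, 10 and 6 were above background in iFIPC 1, 2 and 3, against 7, 4 and 4 in FI organoids, 4, 4 and 5 in iISC and 4 in each crypt sample. Their summed level was 2.20, 3.32 and 1.26 in iFIPC organoids and -0.36 to 0.81 in FI organoids. It was 0.16 to 0.32 in iISC and 0.00 to 0.20 in crypt organoids. The sum adds signals on the linear scale, and Vim had the highest level of the 11 markers in every organoid sample. Vim was at 1.54, 2.57 and 1.03 in iFIPC and -1.08, -0.66 and 0.69 in FI organoids, so the sum leans on this gene. In iFIPC 2, where this sum was highest, Foxc2 and Klf8 were at background and Foxc1 was at its lowest iFIPC level, 0.22. Foxf2 was at -2.05 there, between its other iFIPC levels. Dcn, a fibroblast proteoglycan, was at -2.23, -1.15 and -3.65 in iFIPC organoids and not well above background on any other organoid array, while Col1a1 was above background in all iFIPC samples and in 2 of 3 FI samples. In iISC organoids 4 of the 11 markers, Col1a2, Pdgfrb, Postn and Vim, were above background on all 3 arrays, Col3a1 on 1 and the other 6, Col1a1 and Dcn among them, on none. Of these 4, Pdgfrb was higher in iISC organoids, at -1.86, -1.70 and -1.46 against -3.35, -5.05 and -4.04 in crypt organoids. Vim was lower there, at -0.35, -0.41 and -0.75 against -0.08, -0.22 and -0.10 in crypt organoids. Col1a2 and Postn overlapped between the groups. Fewer cells of a type and less RNA per cell cannot be told apart in these bulk samples, and the part of fibroblasts in the iFIPC values of Foxc1, Foxf2, Foxc2 and Klf8, or in the iISC values of Foxc1, was not tested. The summed level of 6 smooth muscle markers was 3.37 to 4.04 over all organoid samples, against 8.37 to 8.85 in MEF. Of 6 endothelial markers, 3 (Kdr, Emcn and Tek) were above background on every MEF array, while Pecam1 was on none of any group. Their summed level was 0.21 to 1.13 in MEF and -5.25 to -4.30 over the iHep and organoid arrays. The part of endothelial and smooth muscle cells in the members lower than in MEF was not tested.

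**Figure D2:**
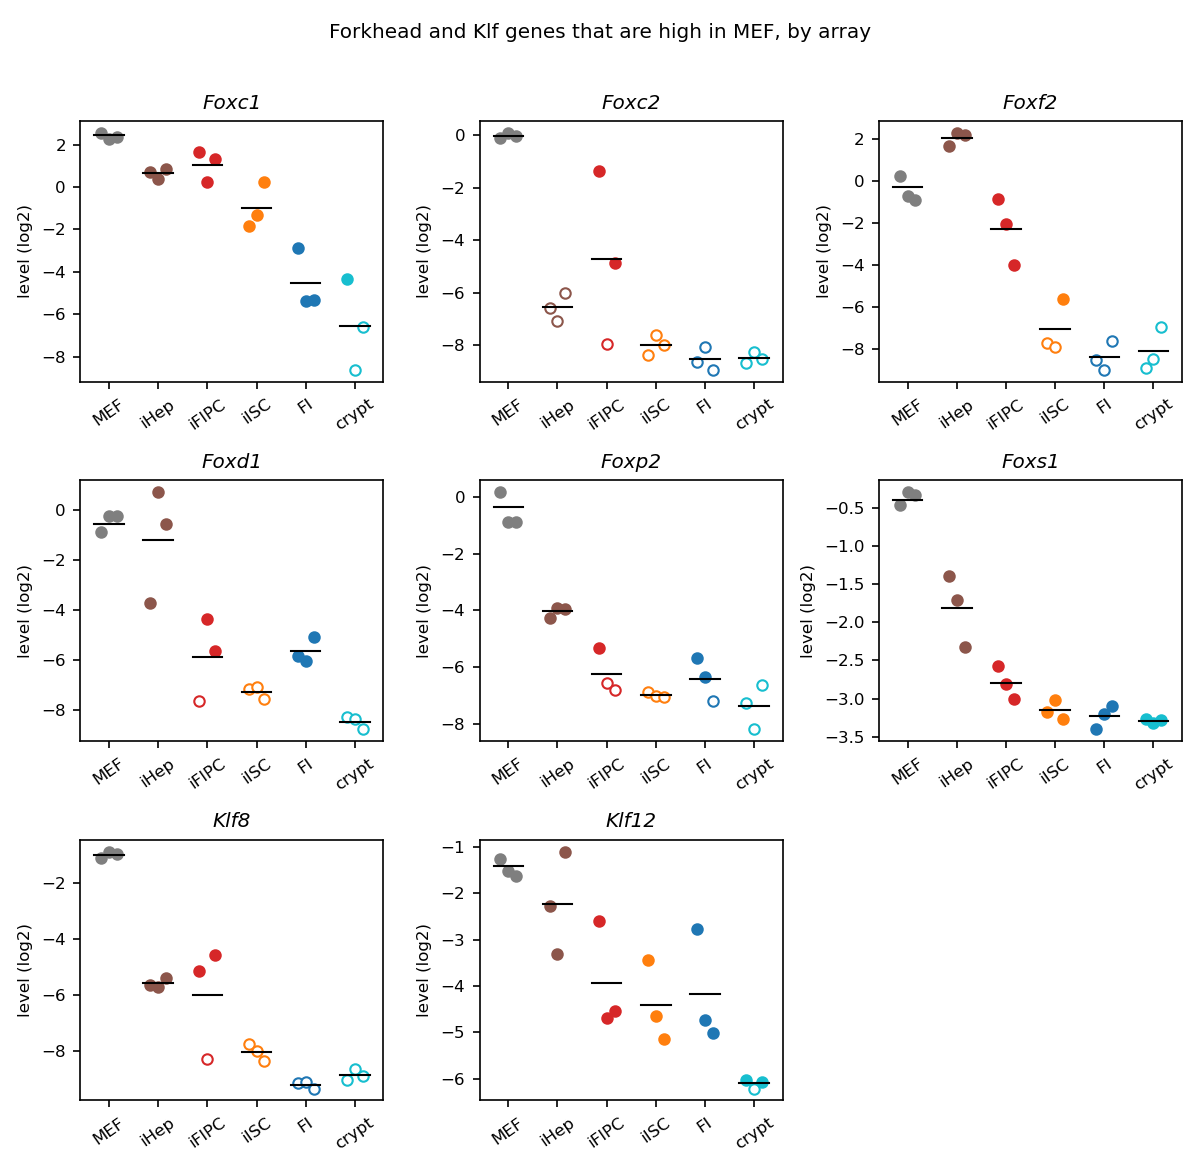
Level (log2 relative to the array's 75th percentile) of 8 members high in MEF, on each of 18 arrays; filled points are well above background, open points are not, and bars are group means (MEF arrays 2 and 3 counted as 1). In the Foxc1 panel the iFIPC and iISC points lie above the FI and crypt points, and in the Foxf2 panel the iFIPC points lie above all other organoids.

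Foxd1 was called between the native groups, at levels near background. Its levels were -5.84, -6.04 and -5.10 in FI organoids, and in crypt organoids it was above background on no array, at least 1.96-fold lower (fitted change -2.81 ± 0.66, adjusted p = 0.0193). It was the member called of 37 tested between crypt and FI organoids, where 9.15% of all genes were called. The call ended without crypt 2 (adjusted p = 0.0607) or crypt 3 (0.0724), with normexp background and with slide as a term. Over 15 alternatives the Foxd1 value ran from -3.00 to -0.27. Within slide 3, which holds crypt 1 alone of its group, the change was -2.61. In iFIPC organoids Foxd1 was above background in samples 2 and 3 and did not pass against FI organoids (-0.23 ± 0.66, 0.819).

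Between induced and native organoids few other members passed. Of 34 tested, Foxc1 and Klf4 were called for iISC against crypt organoids, both higher, with 3.39% of all genes called (2.09% higher). Of 38 tested, 5 were called for iFIPC against FI organoids, Foxc1, Foxf2, Klf4 and Klf6 higher and Klf11 lower, with 10.8% of all genes called (5.74% higher, 5.03% lower). Foxf2 was the member called of 35 between iISC and iFIPC organoids (8.05% of all genes), and also of 38 tested for a stage difference between induced and native organoids (5.3% of all genes). With slide as a term no member was called for iISC against crypt or iFIPC against FI organoids in limma, and 7 and 8 members had an unadjusted p under 0.05. The median change of the members tested was 0.08 and 0.01, beside -0.01 and -0.08 over all genes tested.

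**Figure D3:**
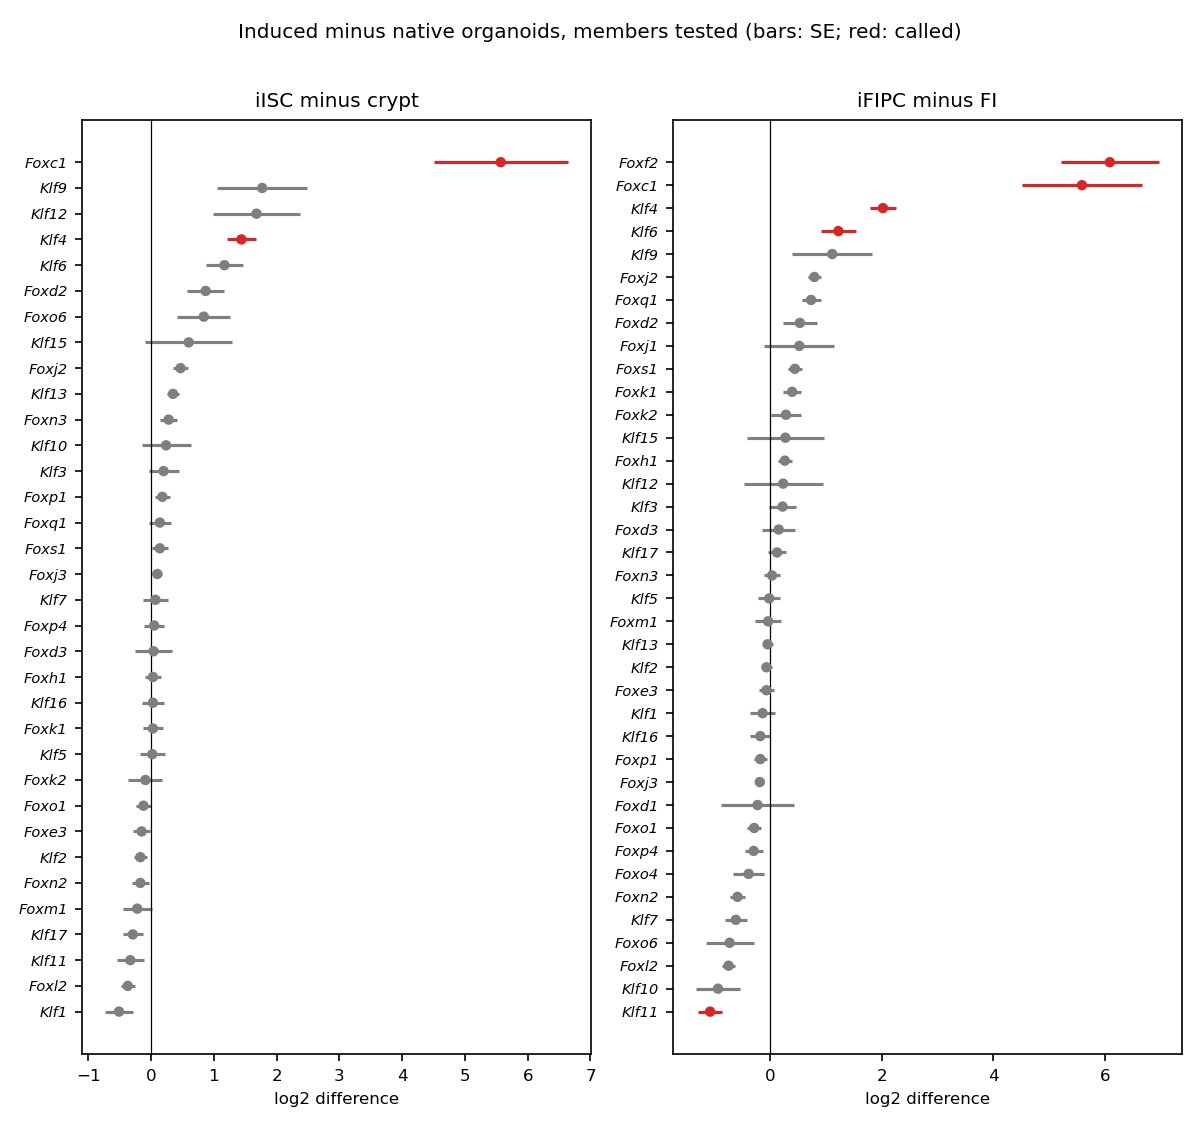
Log2 difference of induced minus native organoids for the 34 members tested in iISC against crypt and the 38 tested in iFIPC against FI organoids, with bars of 1 standard error and called members in red. Foxc1 and Klf4 are red in both panels, and most members lie near 0.

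Klf4, a factor of differentiated gut epithelium, was higher in both induced groups. Its levels were 5.18, 5.09 and 5.26 in iISC and 3.51, 3.86 and 3.82 in crypt organoids, and 6.05, 5.62 and 5.66 in iFIPC and 4.23, 3.83 and 3.19 in FI organoids (probe on mm9 chromosome 4, 55540833 to 55540892). Every induced sample lay above every native sample. The changes were 1.44 ± 0.23 (n = 3 each; adjusted p = 0.0107) and 2.02 ± 0.24 (0.000856), and no left-out sample ended either call. With slide as a term they were 1.57 ± 0.45 (0.197) and 1.77 ± 0.46 (0.127). On slide 4 Klf4 was 3.86 and 3.82 in the crypt samples and 6.05 and 5.66 in the iFIPC samples. The MEF mean lay between those of the induced and the native groups, with levels of 4.12, 4.36 and 4.40, though FI 1 lay above MEF 1. The iFIPC organoids were 1.53 ± 0.29 above MEF (limma adjusted p = 0.000493).

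Klf6, an injury-responsive relative, was higher in iFIPC than in FI organoids. Its levels were 2.94, 3.87 and 3.43 in iFIPC and 2.66, 2.01 and 1.91 in FI organoids, and 3.15, 3.74 and 3.86 in iISC and 2.10, 2.35 and 2.79 in crypt organoids. The samples did not overlap at either stage. The iFIPC change was 1.22 ± 0.31 (adjusted p = 0.019), and the iISC value of 1.17 ± 0.30 was not called (0.0574). The Klf6 call ended without iFIPC 2 (0.99, adjusted p = 0.0634), iFIPC 3 (1.21, 0.0519), FI 2 (1.13, 0.0716) or FI 3 (1.08, 0.0557). With slide as a term it was 0.52 ± 0.52 (0.651). The second Klf6 probe had means of 2.06 in iFIPC, 0.96 in FI, 2.03 in iISC and 1.01 in crypt organoids, with induced above native groups as for the first. MEF levels of Klf6 were 3.65, 4.13 and 4.15. Against MEF it was called lower in FI (-1.71, limma adjusted p = 0.00238) and crypt organoids (-1.48, 0.00554), the crypt call being lost without MEF 2. It was not called against MEF in iFIPC or iISC organoids.

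Klf11, a TGF-beta-inducible repressor, was lower in iFIPC than in FI organoids by its brighter probe only. It was at -2.05, -2.29 and -2.40 in iFIPC and -1.07, -0.97 and -1.46 in FI organoids, a change of -1.08 ± 0.21 (adjusted p = 0.00762). Without FI 2 the change was -0.98 (0.035), under the size required, and with slide as a term it was -0.39 ± 0.32 (0.582). The dimmer Klf11 probe had means of -3.22 in iFIPC and -3.16 in FI organoids, and the call also ended with the mean of both probes (-0.57, adjusted p = 0.0912) and with normexp background (-0.93, under the size required). The iFIPC samples lay nearer to the MEF levels of -2.81, -2.66 and -2.68 than the other organoids did, and Klf11 was called higher against MEF in iISC (1.37 ± 0.29, adjusted p = 0.000829), FI (1.57 ± 0.29, 0.000304) and crypt organoids (1.71 ± 0.29, 0.000136).

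Klf5, the Klf of dividing crypt cells, made the largest rise among the 10 members called higher in any organoid type than in MEF. Its levels were -1.02, -1.07 and -1.03 in MEF and 3.25 to 4.25 over the 12 organoid samples. The changes were 4.76, 5.03, 4.77 and 5.01 ± 0.27 for iFIPC, iISC, FI and crypt organoids (adjusted p = 8.51e-09, 3.94e-09, 7.17e-09 and 3.65e-09). Among organoids the groups overlapped, with 0.02 ± 0.20 for iISC against crypt (adjusted p = 0.964) and -0.02 ± 0.20 for iFIPC against FI organoids (0.963). iHep cells were in between, at 2.12, 1.64 and 2.62.

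Klf3, a repressor, was at 0.92, 0.13 and 0.19 in MEF and higher in iFIPC (1.35 ± 0.33, adjusted p = 0.00285), iISC (1.16, 0.00655) and FI organoids (1.13, 0.00801). Its crypt value of 0.96 ± 0.33 (adjusted p = 0.018) was under the size required. The 3 Klf3 calls were lost without MEF 2, and the iISC and FI calls also without iISC 3 and FI 3. Klf10, another TGF-beta-inducible factor, was at 0.91, 0.97 and 0.85 in MEF and 1.41 to 3.28 over the organoids, with changes of 1.07 ± 0.40 (iFIPC, adjusted p = 0.0306) to 2.01 ± 0.40 (FI, 0.000585). The Klf10 calls of iFIPC and crypt organoids were each lost in 4 of 14 alternatives, among them without MEF 1 or MEF 2, iFIPC 2 or iFIPC 3, and crypt 1. Klf9, a glucocorticoid-responsive factor, was at 0.67, 0.31 and 0.32 in MEF and lower in crypt (-3.74 ± 0.71, adjusted p = 0.000379), FI (-2.63, 0.0052) and iISC organoids (-1.98, 0.0244). The iISC call of Klf9 was lost in 5 of 14 alternatives (-2.57 to -1.47), among them without iISC 1, iISC 2, MEF 1 or MEF 2. Crypt 1 was its lowest sample, at -4.67 against -2.50 and -2.58 in crypt 2 and 3.

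**Figure D4:**
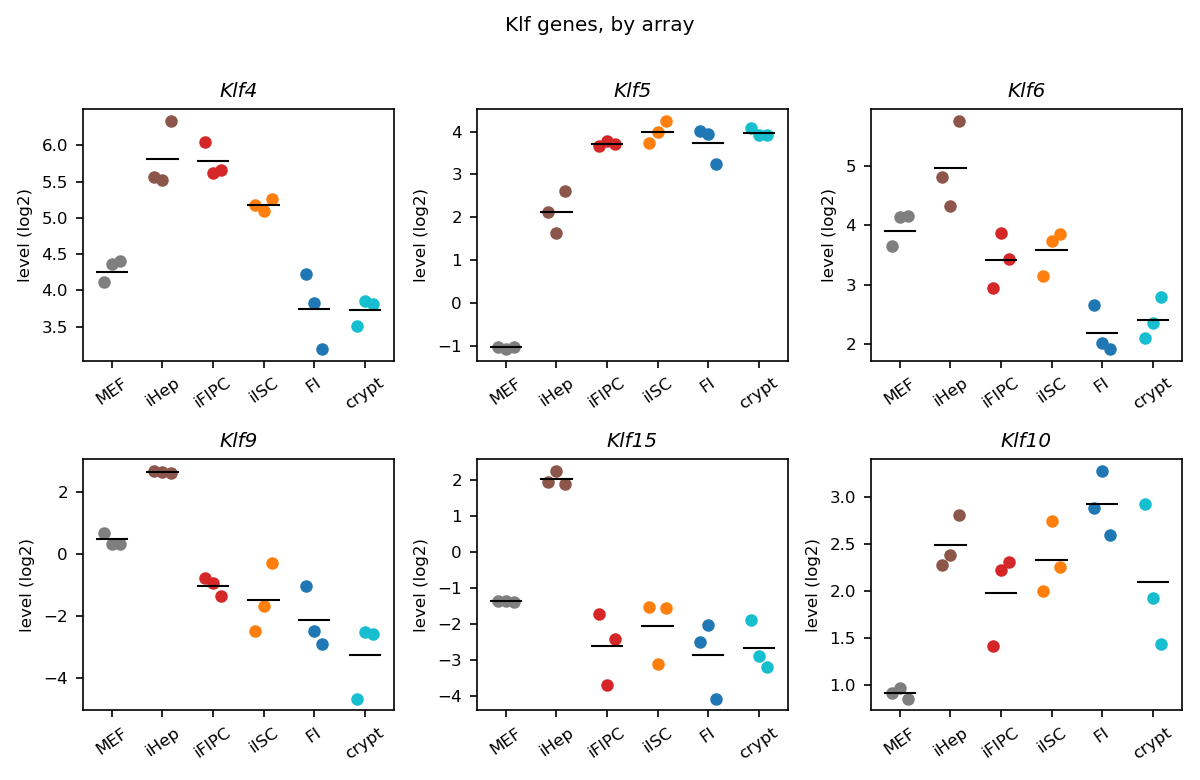
Level (log2 relative to the array's 75th percentile) of 6 Klf genes on each of 18 arrays, with bars at group means (MEF arrays 2 and 3 counted as 1); all points are well above background. Klf4 and Klf6 points of iFIPC and iISC organoids lie above those of FI and crypt organoids, Klf5 is lowest in MEF, and Klf9 and Klf15 are highest in iHep.

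In iHep cells, the other conversion, Klf15, Klf9, Klf5 and Foxf2 were higher than in MEF, and Foxc2, Klf8 and Foxp2 were lower. Of 42 members 18 were called against MEF (12 higher, 6 lower), with 27.8% of all genes called (11.9% higher, 15.9% lower). Klf15, a regulator of liver amino acid and glucose metabolism, was at 1.95, 2.27 and 1.90 in iHep and -1.35, -1.35 and -1.38 in MEF, 3.40 ± 0.68 higher (adjusted p = 0.00134). Klf9 was at 2.69, 2.65 and 2.62, 2.16 ± 0.71 above MEF (0.0248), and this call was lost without iHep 1, iHep 2, MEF 1 or MEF 2. Klf5 (3.16 ± 0.27, adjusted p = 9.68e-07), Klf10 (1.59 ± 0.40, 0.00567), Klf4 (1.56 ± 0.29, 0.000777), Klf13 (1.07 ± 0.11, 7.82e-06), Klf3 (1.07 ± 0.33, 0.0174) and Klf6 (1.07 ± 0.41, 0.0475) were higher too. The Klf6 call was lost in 10 of 16 alternatives (0.68 to 1.39), among them leaving out iHep 1, iHep 3, MEF 1 or MEF 2, and the Klf3 call in 5 of 16 (0.69 to 1.45), among them without iHep 3 or MEF 2. Within slide 1, which holds MEF 1 and the iHep arrays, the calls of Klf4, Klf10 and Klf13 were lost too, and Klf13 also without MEF 1. Of 16 Klf genes tested 10 were called, and of 26 Fox genes 8.

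Among forkhead genes, Foxf2 was higher in iHep than in MEF. It was at 1.67, 2.27 and 2.18 (change 2.33 ± 0.89, adjusted p = 0.0467), a call that ended on leaving out any 1 of these samples. Foxc2 was at least 61.7-fold lower (0.000862) and above background on no iHep array. Klf8 (-4.58 ± 0.74, adjusted p = 0.000274), Foxp2 (-3.68 ± 0.53, 0.000117), Foxo6 (-1.96 ± 0.64, 0.0237) and Foxs1 (-1.42 ± 0.22, 0.000191) were lower, and Klf14 was at least 3.58-fold lower. Foxo4 (1.64 ± 0.33, 0.00139) and Foxd2 (1.03 ± 0.35, 0.0303) were higher. The Foxo6 call was lost in 7 of 16 alternatives (-2.65 to -1.34, adjusted p up to 0.27), among them without iHep 1, iHep 2, MEF 1 or MEF 2. The Foxd2 call was lost in 7 of 16 (0.30 to 1.43), among them without iHep 1, iHep 2 or MEF 2, Foxo4 in 2 of 15 (normexp, 0.39, and within slide 1), and Foxs1 within slide 1. Foxc1 (-1.77 ± 1.05, 0.189) and Foxd1 (-0.64 ± 1.05, 0.65) were not called. All 11 fibroblast markers were above background on every iHep array, at summed levels of 6.65 to 7.76 against 10.14 to 10.21 in MEF, and their part in these forkhead levels was not tested.

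Between iFIPC organoids and iHep cells 20 of 41 members were called (6 higher, 14 lower), with 34.1% of all genes called (17.5% higher, 16.6% lower). Foxd1 (-4.68 ± 0.94, 0.000908), Klf15 (-4.64 ± 0.61, 3.28e-05), Foxf2 (-4.35 ± 0.79, 0.000447) and Klf9 (-3.67 ± 0.63, 0.0003) were lower in the organoids. The Foxd1 change rests partly on a level at background. Foxo6 (3.21 ± 0.57, 0.00037), Foxk1 (1.88 ± 0.25, 3.22e-05), Klf5 (1.60 ± 0.24, 9.52e-05) and Foxq1 (1.12 ± 0.36, 0.0179) were higher. The dimmer Klf5 probe had means of -3.59 in iFIPC and -3.46 in iHep, and with the mean of both probes the Klf5 value was 0.73 (adjusted p = 0.0133), under the size required. The Foxq1 call was lost without iFIPC 1 or iHep 1, and the Foxk1 value was 0.74 with normexp, under the size required. Klf4 did not differ detectably (-0.03 ± 0.26, adjusted p = 0.917).

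The 2 probes of Klf2, a factor of vessel walls and lymphocytes, disagreed. The brighter probe had means of 6.77 to 7.02 in the organoid groups and was called higher against MEF by 1.22 ± 0.28 (iFIPC, adjusted p = 0.00192) to 1.47 ± 0.28 (crypt, 0.00039). MEF array 1 read 4.84 and arrays 2 and 3 read 6.27 and 6.25. The dimmer probe had means of 2.14 in MEF, 0.84 in iHep and -1.39 to -2.86 in the organoids, the opposite order. No direction is given for Klf2. Klf1, the erythroid Klf, was at least 1.69-fold to 2.12-fold above MEF in iFIPC, FI and crypt organoids, near background, and the direction turned for iFIPC and FI organoids with another background correction.

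Among Foxo genes, which act downstream of insulin signalling, Foxo1 was on every array and did not reach the size required in any comparison, with -0.32 to 0.89 in the MEF and iHep comparisons. Its MEF levels were 1.46, 0.21 and 0.22, so the values against MEF rest partly on MEF 1. Means of the other groups were 1.41 to 1.73. The dimmer Foxo1 probe had means of 0.42 in MEF and 1.00 to 1.44 in the other groups. Foxo6 was at -0.86, -1.48 and -1.36 in MEF and higher in FI (1.99 ± 0.64, adjusted p = 0.0141) and iISC organoids (1.52 ± 0.64, 0.0489). The iISC call of Foxo6 was lost in 6 of 14 alternatives (0.98 to 2.08, adjusted p up to 0.216), among them without iISC 1, iISC 2, MEF 1 or MEF 2, and the FI call without MEF 2 (highest adjusted p 0.0957). The probe named Foxo3 lies on mm9 chromosome 14 while the probe named Foxo3a lies on chromosome 10, so the first may not read Foxo3. The Foxo3a probe was called in no comparison with MEF. Of 18 Foxo target genes, 3 to 6 of 15 or 16 tested were higher and 2 to 4 lower in each organoid type against MEF. Of all genes, 20.2 to 24.2% were called higher and 23.3 to 26.2% lower there. The Foxo target medians were -0.07 to 0.18, beside -0.03 to 0.03 over all genes. In iHep against MEF 3 of 15 Foxo targets tested were higher and 1 was lower, where 11.9% of all genes were called higher and 15.9% lower. The list median was -0.09 there, beside -0.11 over all genes. Pdk4, a fasting gene, was 5.03 ± 1.55 higher in iHep than in MEF (adjusted p = 0.0184). It was called lower than in MEF in iFIPC (-4.27) and iISC organoids (-5.49) and was not called in FI or crypt organoids.

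Foxm1, the forkhead of cell division, was at 0.51, 0.18 and 0.18 in MEF and 0.24 to 1.01 over the organoid samples, and passed in no comparison (crypt against MEF 0.51 ± 0.28, adjusted p = 0.126). Of its 15 listed targets 6, 7, 9 and 9 were higher in iFIPC, iISC, FI and crypt organoids than in MEF. None was lower. In the same order, 20.2, 23.1, 23.3 and 24.2% of all genes were called higher, and 23.3 to 26.2% lower. The list medians were 0.88, 0.66, 1.1 and 1.06, beside -0.03 to 0.03 over all genes. Cenpf, a kinetochore gene, was 1.53 ± 0.31 to 2.35 ± 0.31 higher and Aurkb, a mitotic kinase, was 2.03 ± 0.24 higher in FI organoids (adjusted p = 8.26e-06). No target was called among the organoids.

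Foxj1, the regulator of motile cilia, read -4.86, -3.15 and -3.57 in MEF. Its signal was at least 5.60-fold lower in crypt organoids (adjusted p = 0.00545), a call lost with normexp and without MEF 2. In iISC organoids, with 1 of 3 arrays above background, Foxj1 was called lower (0.028), and this was lost with normexp, with the deposited matrix, and without iISC 1 or MEF 2. Its listed ciliary targets went both ways, with 2 or 3 higher and 1 or 2 lower of 4 or 5 tested against MEF in each organoid type. In these comparisons 20.2 to 24.2% of all genes were called higher and 23.3 to 26.2% lower, and no result is read from so few targets. Among the ciliary targets, Tekt1 was above background on no MEF array and could be tested only where high, in FI organoids. Foxk1, a nutrient-responsive repressor, was higher in iISC (1.44 ± 0.28, adjusted p = 0.00043), crypt (1.42, 0.000468) and iFIPC organoids (1.36, 0.000786). With normexp background these Foxk1 values were 0.60, 0.57 and 0.50, under the size required. Foxq1, expressed in gut epithelium, was at 2.07, 1.76 and 1.61 in iFIPC organoids and 1.61 ± 0.41 above MEF (0.00373). The MEF levels were -0.81, 1.26 and 1.16, and without MEF 1 the value was 0.60 (adjusted p = 0.0528, not called); in a fit of the groups alone the adjusted p was 0.0792. Foxq1 lay 0.73 ± 0.17 above FI organoids (0.0143), under the size required, with no overlap of samples. Foxj2 was lower in iISC (-1.04 ± 0.15, 5.65e-05), FI (-1.42 ± 0.16, 3.79e-06) and crypt organoids (1.77e-06), and the iISC call was lost in 4 of 14 alternatives (-1.26 to -0.82), among them without MEF 1.

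By the brightest probe of each gene, group means of 11 members lay within 1 log2 over all 6 groups. These were Foxb2, Foxd3, Foxe3, Foxh1, Foxj3, Foxk2, Foxl2, Foxm1, Foxo1, Foxp4 and Klf16. Foxh1 and Foxe3 were the narrowest, at 0.27 each. Foxb2 was above background on 1 array, so its range is not read. Dimmer probes of Foxk2, Foxp4 and Foxj3 ranged more widely. For Foxk2, means fell from 1.39 in MEF to -0.4 in FI organoids, and on another probe from -0.29 to -2.03. The dimmest Foxk2 probe was lowest in MEF, at -6.07, and highest in crypt organoids, at -4.89. The dimmer Foxp4 probe had means of -4.34 in MEF and -2.62 in FI organoids. The dimmest Foxj3 probe had -8.78 in FI and -7.02 in iISC organoids. A narrow range does not show equal levels.

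Related lists were counted in the same comparisons. Sp5, a Wnt target and a relative of the Klf genes, was above background on every organoid array, at -1.60 to 4.08, and on 1 of 3 MEF arrays, at -5.10, and was called higher in each organoid type. With Sp5, 2 or 3 of 6 or 7 Sp genes tested were higher in each organoid type, where 20.2 to 24.2% of all genes were called higher. Sp5 could be tested only where high, so its place in these counts is not read. Of 8 goblet and surface epithelium genes linked to Klf4, Krt19, Krt13 and Cdkn1a were above background in MEF. Krt19 (5.27 to 6.35) and Krt13 (4.53 to 5.80) were higher in every organoid type, and Cdkn1a was lower in iISC, FI and crypt organoids. The other 5 were above background on no MEF array and could be tested only where high, so no count is read from them. Between iFIPC and FI organoids, where Klf4 was higher, Krt13 (1.27 ± 0.29, adjusted p = 0.0135) and Krt19 (1.08 ± 0.19, 0.00541) were higher and none was lower. Between iISC and crypt organoids Alpi, the alkaline phosphatase of mature enterocytes, was lower (-2.21 ± 0.47, 0.0296) and none was higher. The hedgehog list covers a pathway that acts on gut mesenchyme. Some of its genes were above background throughout MEF only or throughout organoids only. These could be tested only where high, so no count is read from the list. The ligand gene Ihh was above background on every organoid array, at 0.87 to 2.78, and on no MEF array. The receptor and response gene Ptch1 was called higher in all 4 types (1.98 in iFIPC to 2.61 in FI organoids), with MEF at -7.64, -4.12 and -4.16 and not above background on 1 of these arrays. Gli3 (above background on 1 organoid array) and Hhip (on none) were lower. No hedgehog gene was called between induced and native organoids.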

How the data were processed

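RNA from 6 culture groups was measured on 18 one-colour Agilent arrays, 3 per group, grouped by title. The authors deposited each array's processed signal as a linear intensity, background-subtracted and detrended by Feature Extraction (9.5.1.1 per the submitters' processing notes, with 9.5.1.1 for MEF and iHep and 10.7.1.1 for organoids per the file headers). Spot means and background medians are deposited intensity values too, and deposited flags (well above background, saturated, outlier) are of another kind. The deposited matrix, used as an alternative, is the same signal quantile-normalised, with a median of 59.32 in each column.

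Outlier spots were left out (62 to 107 per array; 0 to 3 probes were saturated), 41109 of 41174 gene probes had a value on every array, and spots of a probe were averaged. Levels are log2 intensity minus the array's 75th percentile. Probes were named through RefSeq (24963 by accession, 5950 by symbol, 1763 by synonym, 8433 unnamed), and the brightest probe stood for a gene. MEF arrays 2 and 3 were counted as 1 sample.

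limma 3.58.1 in R 4.3.3 (statmod 1.5.0) fitted 1 mean per group over 17 samples (MEF and iHep comparisons) or the 12 organoid samples, tested two-sided on all genes that were above background throughout at least 1 compared group; the scripts were tested on simulated data. For "at least N-fold", a dim array counts at the faintest level that was still well above background on it, or at its own level if higher. The number of arrays limits precision. Members, role groups and gene lists were chosen with earlier results of these data known. Named were called members without overlap that were above background throughout the higher group, and the role groups. Alternatives were normexp (offset 50), other normalization, filters, probe averaging, slide terms, a replicate block and left-out samples. The values of 1 member are not reported here; it remains in the counts. Promoters are RefSeq GRCm38.p6, and probe positions are mm9.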

Additional observations from a re-analysis of the deposited data

Results flagged for a closer look

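For Foxf2, the test of a stage difference between induced and native organoids passed its threshold, though it rests on a native stage change that was not measured. The change from iFIPC to iISC organoids minus the change from FI to crypt organoids was -5.05 ± 1.25 on the log2 scale (limma adjusted p = 0.0405). It was the member called of 38 tested, where 5.3% of all genes were called. Foxf2 was above background on no FI or crypt array, so this value rests on the iFIPC samples at -0.88, -2.05 and -4.01 and on iISC organoids at -7.71, -7.90 and -5.64. Of 19 alternatives 13 ended the call (adjusted p = 0.0259 to 0.374 over all 19). It was lost without iISC 1, iISC 2, iFIPC 1, iFIPC 2, crypt 2, crypt 3, FI 1 or FI 2.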

How the results depend on the processing

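Over 128 member results and 1817 alternative values, 1630 kept direction and call, 179 kept direction only and 8 reversed. Reversed were Klf1 with normexp (iFIPC against MEF -0.20, FI against MEF -0.18, iFIPC against iHep -0.04) and Klf2 with the mean of its probes (iFIPC against MEF -1.43, iISC against MEF -1.18, FI against MEF -1.93, crypt against MEF -1.69, iFIPC against iHep -0.37). The counts of called members that moved by over 1.5 times were as follows. With probes above background in both groups, which tests fewer members, they were 9 for iFIPC, 12 for iISC and 10 for crypt organoids against MEF, 1 for iISC against crypt organoids, and 0 for crypt against FI, iISC against iFIPC and the stage difference (3, 9 and 6 members at an unadjusted p under 0.05 in limma). Within slide 1, 10 were called for iHep against MEF. With the groups alone the counts were 1 (iISC against crypt), 2 (crypt against FI) and 0 (iISC against iFIPC; 9 unadjusted). With slide as a term they were 0 for iISC against crypt, iFIPC against FI, crypt against FI and the stage difference (7, 8, 6 and 5 unadjusted), and 0 within slide 3 (crypt against FI; 4 unadjusted) and slide 5 (iISC against iFIPC; 6 unadjusted). Normexp gave 0 (crypt against FI; 4 unadjusted), 2 (iISC against iFIPC) and 0 (stage; 7 unadjusted). The stage count was 0 with no filter (9 unadjusted) and with slide as a random block (7 unadjusted). The replicate numbers do not pair the samples: correlations of same-numbered deviations were -0.409 to 0.38, and 0 to 3 of 6 samples matched their own number best. With the replicate block the counts were 2 for crypt against FI and 0 for the stage difference (7 unadjusted). Leaving out 1 sample gave 14 to 16 members (iHep against MEF), 14 to 18 (iFIPC against MEF), 17 to 20 (iISC against MEF), 20 to 23 (FI and crypt against MEF), 18 to 21 (iFIPC against iHep), 1 to 3 (iISC against crypt), 3 to 6 (iFIPC against FI), 0 to 4 (crypt against FI), 1 to 3 (iISC against iFIPC) and 0 to 3 (stage). The causes were not tested. Levels near background have no firm order.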
